A study of Mus musculus with 12 samples.

Results

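The growth hormone receptor and STAT5 pathway is described here through 10 genes, chosen by name: the receptor Ghr, the kinase Jak2, the transcription factors Stat5a and Stat5b, the feedback genes Socs2, Cish and Socs3, and the transcription factors Bcl6, Cux2 and Onecut1. All 10 had a row among the 24537 genes of the liver RNA-Seq table, and all 10 were among the 10593 genes tested, those that reached 1 FPKM in 3 or more of the 12 libraries. FPKM is the read number divided by exon length and by library size, with no further scaling between libraries. Comparisons between genes depend on the exon length counted, and comparisons between livers on the scaling, for which alternatives are given below. The study followed the liver of male C57Bl/6J mice during caloric restriction (CR), started at 6 weeks of age. RNA was sequenced from 12 livers, 3 from each of 4 groups: CR and ad libitum-fed controls (Con) at day 25 (d25) and at day 30 (d30). CR mice received 30% less food than Con mice ate, of a fortified form of the diet, given once a day at noon and adjusted weekly. All mice lived in single cages and drank heavy water over the last days before they were killed. The hour at which the livers were taken is not given in the sources used here. Libraries are called Con7, Con8 and Con9 (Con d25), CR7, CR8 and CR9 (CR d25), Con10, Con11 and Con12 (Con d30) and CR10, CR11 and CR12 (CR d30).

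Growth hormone binds its receptor on hepatocytes, the receptor-bound kinase JAK2 phosphorylates STAT5A and STAT5B, and the STAT5 proteins enter the nucleus and switch on target genes. Among the targets are Socs2 and Cish, which shut the signal off again, and Igf1, the circulating growth factor. In rodents the pituitary releases growth hormone in pulses in males and more evenly in females, and STAT5 together with BCL6, CUX2 and ONECUT1 shapes the sex-biased expression of many liver genes, with Bcl6 higher in male liver and Cux2 higher in female liver. This is background and not a result of these libraries.

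The libraries held 15748927 to 23345146 reads, and the liver label was borne out by 10 of 10 hepatocyte markers above the filter, with a summed level of 41841 to 71595 FPKM. Markers of other cells were lower, with summed levels of 41.6 to 109.8 FPKM for 10 macrophage markers, 38.5 to 61.7 FPKM for 8 endothelial markers and 55.9 to 97.1 FPKM for 8 stellate cell markers, and all 10 lymphocyte and leukocyte markers lay below the filter. Some of these lists moved with the diet. At d25, 6 of 10 macrophage markers were lower in CR mice (9.34% of all genes were called lower), with a summed level of 41.6 to 50.6 FPKM against 63.5 to 109.8 FPKM in Con mice. At d30 0 of the 10 macrophage markers were called lower (16.4% of all genes were) and 1 higher. Their d30 sums were 54.2 to 75.7 FPKM in CR and 55.8 to 81.1 FPKM in Con mice. At d30 4 of 8 endothelial, 3 of 7 tested stellate cell and 4 of 10 hepatocyte markers were higher, against 8.33% of all genes called higher, and 1 hepatocyte marker was lower. Several of these d30 calls were fragile: that of Stab2 was lost in 5, of Stab1 in 8 and of Clec4g in 9 of 24 alternative settings, and that of Des in 15 of 23. Their part in the results below was not tested, and in whole liver fewer cells of a type cannot be told apart from less RNA per cell.

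Ghr (chr15:3327525-3583352, minus strand, mm10) was by far the most abundant of the 10 genes, with a mean of 120.8 FPKM over the 12 livers, a level above 95.8% of the genes tested. At d25 it stood at 133.9, 127.6 and 108.3 FPKM in Con7, Con8 and Con9 and at 142.0, 131.9 and 88.5 FPKM in CR7, CR8 and CR9. The d25 groups overlapped, and CR7 held the highest and CR9 the second lowest level of all 12 livers. At d30 the 3 Con livers lay within 1.02-fold of each other at 138.7, 136.5 and 136.4 FPKM, and CR10, CR11 and CR12 lay below all of them at 84.5, 119.9 and 101.2 FPKM. The d30 means were 101.9 ± 17.7 and 137.2 ± 1.29 FPKM (SD, n = 3), a ratio of 0.743. The log2 fold change at d30 was -0.44 (SE 0.17, 95% confidence interval -0.82 to -0.06) and did not pass the test (limma, Benjamini-Hochberg adjusted p = 0.101), with adjusted p between 0.0431 and 0.325 over 24 alternative settings, 9 of which passed. At d25 it was -0.05 (95% confidence interval -0.43 to 0.32, adjusted p = 0.890, limma), and over both days, with day as a covariate, -0.25 (95% confidence interval -0.52 to 0.03, adjusted p = 0.163, limma). The table followed the short Ghr transcript, which encodes the soluble growth hormone-binding protein, with a coding length of 891 bases against 1950 for the full-length receptor. Of the 1171 exon bases of the matching annotated transcript, 1009 also belong to the receptor transcript, so the 2 products were not separated here.

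Jak2 (chr19:29251803-29313080, plus strand) encodes the tyrosine kinase bound to the receptor and to several cytokine receptors. Its level was low, at 4.23, 3.04 and 2.96 FPKM in Con7 to Con9, 3.48, 2.18 and 2.78 FPKM in CR7 to CR9, 3.42, 3.69 and 4.01 FPKM in Con10 to Con12 and 2.50, 2.98 and 3.40 FPKM in CR10 to CR12. The CR livers lay below the Con livers without overlap at d30, by the small gap between CR12 and Con10, and overlapped them at d25. Neither day passed the test, with log2 fold changes of -0.21 at d25 and -0.25 at d30 (adjusted p = 0.400 and 0.248, limma). Over both days together, with day as a covariate and 6 livers against 6, Jak2 was lower in CR mice by a log2 fold change of -0.23 (SE 0.10, adjusted p = 0.0866, limma). The call was lost in 13 of 22 alternative settings, among them median-ratio scaling (adjusted p = 0.191), TPM (0.111) and quantile normalization (0.245).

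Stat5a and Stat5b lie side by side on chromosome 11 (chr11:100860484-100885169, plus strand, and chr11:100780731-100850585, minus strand) and encode closely related proteins, of which STAT5B is the main form in liver. Stat5b, at a mean of 9.34 FPKM, was more abundant than Stat5a, at 2.51 FPKM, in every liver. Stat5a stood at 3.03, 2.70 and 2.98 FPKM in Con7 to Con9 and at 3.06, 2.05 and 2.34 FPKM in CR7 to CR9. At d30 it stood at 3.43, 2.31 and 2.61 FPKM in Con10 to Con12 and at 1.66, 2.32 and 1.62 FPKM in CR10 to CR12. The d30 groups touched only through Con11 and CR11, and CR12 and CR10 were the lowest of the 12 livers. Stat5a fell at d30, by a log2 fold change of -0.40 (SE 0.14, 95% confidence interval -0.70 to -0.10, adjusted p = 0.0696, limma), and over both days, by -0.28 (SE 0.10, adjusted p = 0.0432, limma). The d30 call was lost without Con10, Con12, CR10 or CR12, with adjusted p of 0.112 to 0.223 and log2 fold changes of -0.28 to -0.43, and also under median-ratio scaling (adjusted p = 0.107) and quantile normalization (adjusted p = 0.140). The call over both days was lost under quantile normalization (adjusted p = 0.122). At d25 the log2 fold change was -0.17 (adjusted p = 0.482, limma).

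Stat5b ranged only from 7.27 FPKM in CR8 to 10.5 FPKM in CR9, a 1.45-fold range and the narrowest of the 10 genes. Con livers stood at 9.62, 9.77 and 9.50 FPKM at d25 and 9.93, 9.27 and 10.2 FPKM at d30, and CR livers at 8.94, 7.27 and 10.5 FPKM at d25 and 10.3, 8.08 and 8.79 FPKM at d30. The CR livers thus spread on both sides of the tightly grouped Con livers. The log2 fold change over both days was -0.11 (95% confidence interval -0.28 to 0.06, adjusted p = 0.308, limma). Of the windows of 100 bases in the Stat5a transcript, 7.56% occur identically in Stat5b. A read of 100 bases from these does not by itself tell the 2 genes apart. Whether the other read of its pair did was not tested. In addition, 71 exon bases of Stat5a overlap the end of Stat3 on the other strand.

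The feedback genes varied far more between mice than the signalling chain. Socs2 (chr10:95411490-95415283, minus strand), whose product dampens growth hormone signalling at the receptor, stood at 8.53, 7.73 and 5.85 FPKM in Con7 to Con9 and at 3.28, 5.34 and 5.74 FPKM in CR7 to CR9. All 3 CR livers were thus below all 3 Con livers at d25, with means of 4.79 ± 1.32 and 7.37 ± 1.38 FPKM (SD, n = 3). At d30 the Con livers ran from 1.03 FPKM in Con12 and 3.40 FPKM in Con10 to 10.3 FPKM in Con11, a 10.02-fold range, and the CR livers stood within it at 5.82, 5.34 and 4.84 FPKM. The log2 fold changes of -0.55 at d25 and 0.44 at d30 did not pass the test (adjusted p = 0.480 and 0.513, limma), and the d30 direction turned, to -0.16, without Con12. Without Con11 the d30 change passed, at 1.08 (adjusted p = 0.0318, limma), so single livers decided both the size and the direction.

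Cish (chr9:107296659-107302784, plus strand), a STAT5 target whose product blocks receptor docking sites, showed the widest range among the feedback genes, 14.8-fold. Its levels were 4.08, 5.95 and 2.35 FPKM in Con7 to Con9, 1.77, 5.30 and 2.89 FPKM in CR7 to CR9, 2.21, 12.0 and 0.811 FPKM in Con10 to Con12 and 8.72, 2.17 and 3.59 FPKM in CR10 to CR12. The lowest and the highest liver, Con12 and Con11, were both Con d30, and the diets overlapped at both days. The log2 fold change over both days was 0.02 with a 95% confidence interval of -0.90 to 0.94 (adjusted p = 0.981, limma), a wide interval set by the spread between these mice. Antisense transcripts of the annotation, Gm17040 and Gm17041, overlap 103 and 479 exon bases of Cish, and whether counting used strand is not stated.

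Socs3 (chr11:117966087-117969366, minus strand), the feedback inhibitor of interleukin 6 and leptin signalling that STAT3 switches on, stood at 2.80, 2.66 and 2.01 FPKM in Con7 to Con9 and at 1.35, 1.45 and 2.28 FPKM in CR7 to CR9. At d30 it stood at 4.40, 4.45 and 1.08 FPKM in Con10 to Con12 and at 2.11, 0.662 and 1.29 FPKM in CR10 to CR12. Apart from Con12, the Con livers were above the CR livers of their day with a single exception, CR9 against Con9. Over both days Socs3 was lower in CR mice, by a log2 fold change of -0.58 (SE 0.23, 95% confidence interval -1.08 to -0.09, adjusted p = 0.0693, limma). Neither day alone passed (-0.38 at d25 with adjusted p = 0.511, -0.79 at d30 with adjusted p = 0.119), but without Con12 the d30 change did, at -1.25 (adjusted p = 0.00613, limma). The call over both days was lost without Con7, Con10, Con11, CR7, CR8, CR11 or CR12, with adjusted p of 0.101 to 0.148, and with no filter on low levels (adjusted p = 0.133) and under quantile normalization (adjusted p = 0.124).

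Bcl6 (chr16:23965052-23988612, minus strand), a repressor that competes with STAT5 at many of its sites, ranged 9.71-fold. It stood at 2.79, 2.29 and 6.51 FPKM in Con7 to Con9, 6.23, 2.60 and 4.68 FPKM in CR7 to CR9, 9.41, 4.14 and 22.3 FPKM in Con10 to Con12 and 2.36, 19.5 and 5.47 FPKM in CR10 to CR12. Both diets at d30 held a liver near 20 FPKM, Con12 and CR11, and the groups overlapped at both days. The log2 fold changes were 0.22 at d25, -0.49 at d30 and -0.14 over both days, the last with a 95% confidence interval of -1.09 to 0.81, and none passed the test (adjusted p = 0.868, 0.621 and 0.841, limma).

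Onecut1 (chr9:74861921-74889647, plus strand), also called HNF6, is a hepatocyte transcription factor that cooperates with STAT5. Its levels were 10.9, 8.26 and 5.51 FPKM in Con7 to Con9, 6.41, 12.0 and 3.50 FPKM in CR7 to CR9, 3.97, 28.1 and 3.54 FPKM in Con10 to Con12 and 4.996, 3.48 and 6.99 FPKM in CR10 to CR12. Con11 stood far above the other 11 livers. None of the contrasts passed, with a log2 fold change over both days of -0.39 (95% confidence interval -1.27 to 0.49, adjusted p = 0.495, limma) that was 0.015 without Con11. The annotation places another transcript of the same strand, Gm20649, over 2171 of the 3957 exon bases of the matching Onecut1 transcript. Reads on shared bases cannot be told apart. The counting used only 1819 exon bases for Onecut1, and how many of these Gm20649 covers was not computed.

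Cux2 (chr5:121860216-122049851, minus strand), a repressor that is normally female-biased in mouse liver, was the 1 gene of the 10 with a large difference between diets. At d30 the Con livers held 0.139, 0.057 and 0.145 FPKM in Con10 to Con12, from 14, 6 and 16 reads, and the CR livers held 5.69, 2.98 and 2.19 FPKM in CR10 to CR12, from 652, 285 and 251 reads. The d30 groups were far apart, with means of 3.62 ± 1.84 and 0.114 ± 0.049 FPKM (SD, n = 3), a ratio of 31.9. At d25 Con7 was as low as the d30 controls, at 0.133 FPKM, while Con8 and Con9 held 1.23 and 2.13 FPKM and CR7, CR8 and CR9 held 1.10, 1.23 and 9.59 FPKM. The d25 groups overlapped, and CR9 held the highest level of the 12 livers. Cux2 rose at d30, by 1.98 on the log2(FPKM + 1) scale (SE 0.54, 95% confidence interval 0.82 to 3.15, adjusted p = 0.0261, limma), and over both days, by 1.43 (SE 0.40, adjusted p = 0.0157, limma), while the d25 difference of 0.88 did not pass (adjusted p = 0.336, limma). The scale understates the change of a gene at so low a level: with a pseudocount of 0.1 in place of 1 the d30 difference was 4.04. The d30 call was lost without CR10, at 1.68 (adjusted p = 0.109, limma), with the groups still apart. Cux2 reached 1 FPKM in 6 of 6 CR livers and in 2 of 6 Con livers, so it entered the test through the CR livers, and its place among the genes tested is no support for the difference.

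**Figure D1:**
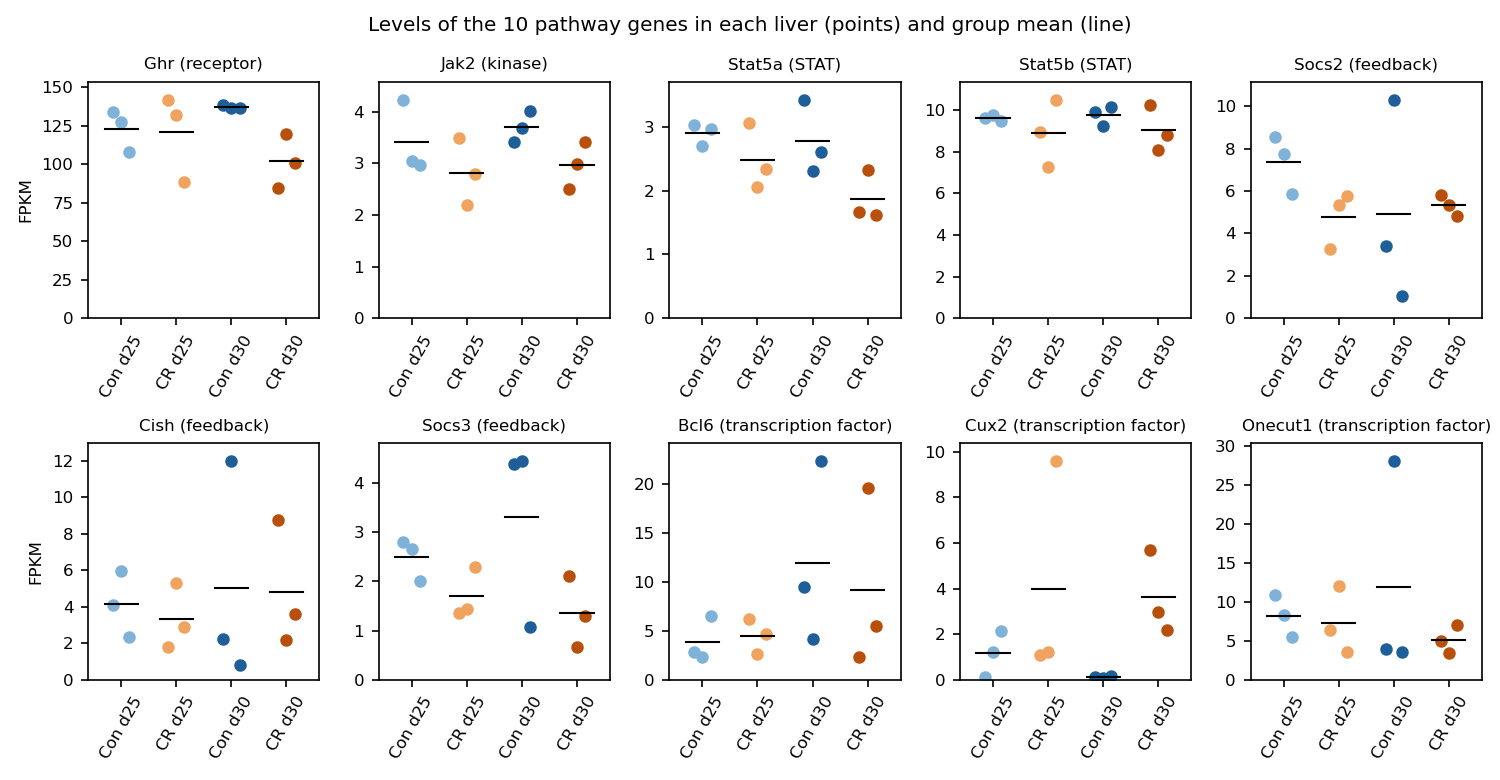
Level of each of the 10 genes in FPKM (vertical axis, from 0) in each liver (points) by group (Con d25, CR d25, Con d30, CR d30), with the group mean as a line. Ghr, Jak2, Stat5a and Stat5b vary less within groups than the other 6 genes, Socs2, Cish, Bcl6 and Onecut1 spread widely within Con d30, and Cux2 lies between 0.057 and 0.145 FPKM in the Con d30 livers against 2.19 to 5.69 FPKM in the CR d30 livers.

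Counted over the pathway, CR against Con at d25 changed 0 of the 10 genes, in a comparison that called 14.9% of all genes tested. At an unadjusted p under 0.05 the count was also 0, against 24.9% of all genes, and voom on recovered whole reads gave 0. Only Socs2 had groups that did not overlap at d25, against 28.2% of all genes. At d30 2 of 10 passed, Stat5a lower and Cux2 higher, against 24.7% of all genes, and 3 had groups that did not overlap, Ghr, Jak2 and Cux2, against 36.4%. At an unadjusted p under 0.05 the d30 count was 4, against 31.7% of all genes. Over both days 4 of 10 passed, Jak2, Stat5a and Socs3 lower and Cux2 higher, against 40.6% of all genes tested, and 0 were without overlap, against 12.5%. The unadjusted count over both days was the same 4, against 42.9%. By direction, 26.1% of all genes were called lower and 14.5% higher over both days. The pathway genes were thus called no more often than genes at large, and these shares are not a result about the pathway. With a further minimum of 1 on the absolute log2 fold change, the count was 0 at d25 (1.48% of all genes) and 1, Cux2, at d30 (2.21%) and over both days (1.66%). The median log2 fold change of the 10 genes was -0.19 at d25 and -0.32 at d30, beside -0.04 and -0.07 for all genes tested.

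**Figure D2:**
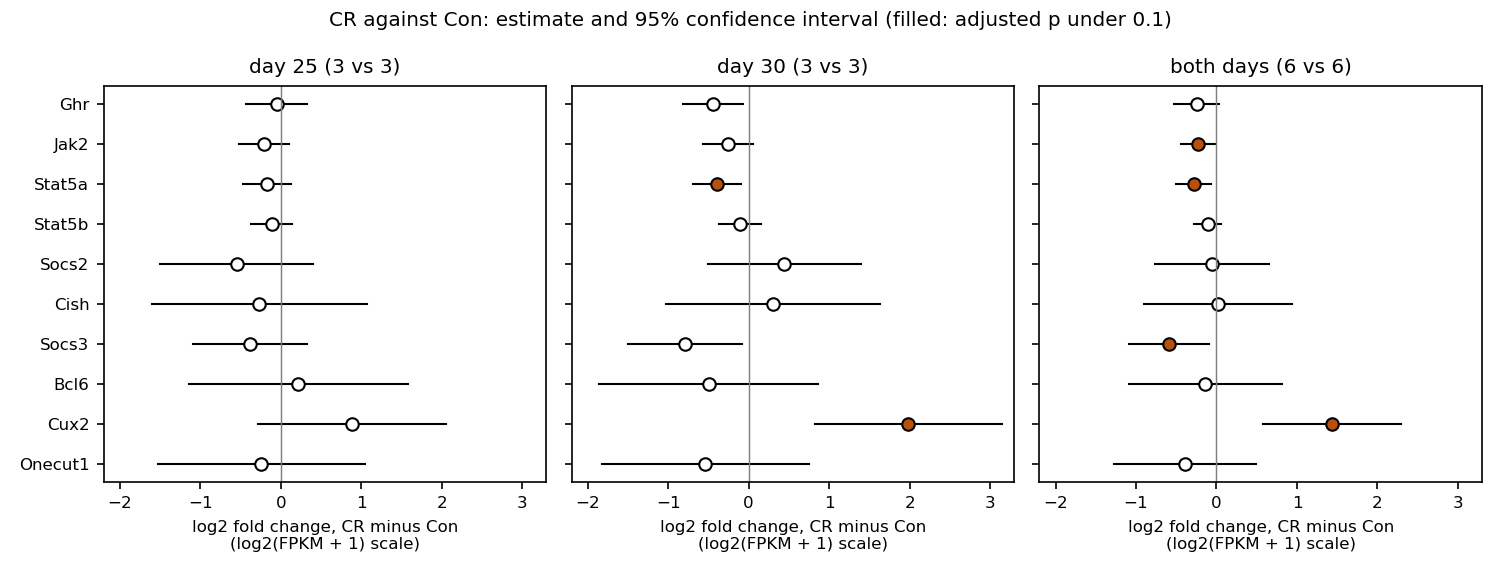
Log2 fold change of CR against Con (horizontal axis, log2(FPKM + 1) scale) with its 95% confidence interval for the 10 genes, at d25, at d30 and over both days; filled points have an adjusted p under 0.1. At d30 the intervals of Ghr (-0.82 to -0.06), Stat5a (-0.70 to -0.10), Socs3 (-1.50 to -0.08) and Cux2 (0.82 to 3.15) leave out 0, those of Cish, Bcl6 and Onecut1 are the widest, and Cux2 lies at 1.98 at d30 and 1.43 over both days.

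Whether the CR effect itself changed between d25 and d30 was tested as the interaction. None of the 10 genes passed (adjusted p = 0.9995 for Ghr, Socs2 and Cux2, limma), in a contrast that called 0.00944% of all genes, 0 of 10 had an unadjusted p under 0.05, against 3.46% of all genes, and voom gave 0. The estimated differences were -0.39 for Ghr (95% confidence interval -0.92 to 0.14), 0.99 for Socs2 (-0.36 to 2.33) and 1.10 for Cux2 (-0.55 to 2.75). These intervals are wide, so that Ghr, Stat5a and Cux2 passed or nearly passed at d30 and not at d25 does not show a difference between the days. From d25 to d30, 0 of 10 genes passed in CR mice (0.321% of all genes) and 0 in Con mice (0% of all genes), with 0 at an unadjusted p under 0.05 in both, against 8.66% and 7.22% of all genes, and 0 by voom. Within Con mice the d30 livers were all above the d25 livers only for Ghr (11.6% of all genes did not overlap there), and Bcl6 had the largest estimate, 1.24 (95% confidence interval -0.11 to 2.60). Within CR mice the groups of the 2 days overlapped for all 10 genes (14.7% of all genes did not overlap), and the lowest adjusted p was that of Stat5a, 0.585 for a log2 fold change of -0.28.

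The spread between mice of the same group split the pathway. The pooled SD within groups on the log2(FPKM + 1) scale was 0.95 for Bcl6, 0.93 for Cish, 0.90 for Onecut1, 0.81 for Cux2, 0.66 for Socs2 and 0.49 for Socs3, beside a median of 0.15 over all genes tested. Bcl6, Cish and Onecut1 were each more variable than 99.8% of the genes tested, Cux2 than 99.5%, Socs2 than 98.8% and Socs3 than 97.4%, and the shares were 97.3% or higher among genes of like level. Ghr, Jak2, Stat5a and Stat5b had SDs of 0.23, 0.19, 0.18 and 0.15, more than 84.0%, 71.1%, 66.3% and 46.8% of the genes tested. The receptor, the kinase and the STATs thus varied less between mice of a group than the other 6 genes.

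Several of the variable genes rose and fell together or in opposite directions from liver to liver, while the deviations of Cux2 from its group means had r of only 0.02 to 0.24 with those of Bcl6, Cish, Socs2 and Socs3. Con11, with the highest Socs2, Cish, Socs3 and Onecut1 of the 12 livers, had 4.14 FPKM of Bcl6, and Con12, with the lowest Socs2 and Cish and low Socs3 and Onecut1, had 22.3 FPKM, the highest Bcl6, although both were Con d30 livers. In CR mice at d30, CR10 had high Cish (8.72 FPKM) with low Bcl6 (2.36 FPKM), and CR11 had low Cish (2.17 FPKM) with high Bcl6 (19.5 FPKM). Over the deviations of the 12 livers from their group means, Pearson's r was -0.90 for Cish with Bcl6, 0.86 for Socs2 with Cish, 0.80 for Cish with Onecut1, -0.79 for Socs3 with Bcl6 and 0.75 for Socs2 with Socs3. Leaving out each liver in turn, r stayed between -0.96 and -0.87 for Cish with Bcl6, and without both Con11 and Con12 it was -0.93. Without those 2 livers r was 0.61 for Socs2 with Cish and 0.48 for Cish with Onecut1, and the pairs of Socs3 with Bcl6 and with Socs2 were not computed without them. Of the 45 pairs among the 10 genes, 6 had r above 0.6 and 7 had r below -0.6, with a median of -0.08. The values of a pair come from the same 12 libraries, pairs share genes, and the pairs named here were chosen from their values.

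A separate pair was Ghr with Cux2, at r = -0.89 (from -0.97 to -0.72 with 1 liver left out). The livers lowest in Ghr, CR10 and CR9 at 84.5 and 88.5 FPKM, held the highest Cux2, at 5.69 and 9.59 FPKM, and this order crossed the days and in part the diets, since Con9, lowest in Ghr among controls, held the highest Cux2 of the controls, 2.13 FPKM. The 4 livers under 0.15 FPKM of Cux2, Con7, Con10, Con11 and Con12, held 133.9 to 138.7 FPKM of Ghr. The order was not strict: CR7, with the most Ghr of all, held 1.10 FPKM of Cux2, and CR11 held more Cux2 than CR12 at a higher Ghr level. Cux2 and Bcl6 had r = 0.02, and CR11 was high in both.

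**Figure D3:**
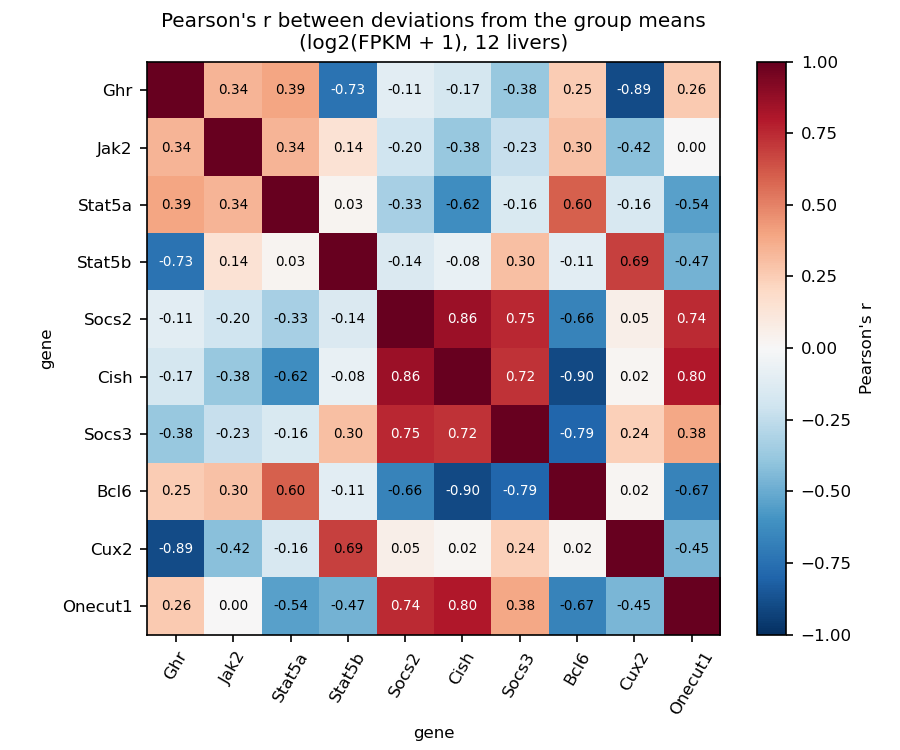
Pearson's r between the deviations from the group means of log2(FPKM + 1) over the 12 livers for each of the 45 pairs of the 10 genes (both axes list the genes; red is positive, blue negative, the value is written in each cell). Socs2, Cish, Socs3 and Onecut1 form a positive block that is negative with Bcl6, down to -0.90 for Cish, and Ghr is negative with Cux2 at -0.89.

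**Figure D4:**
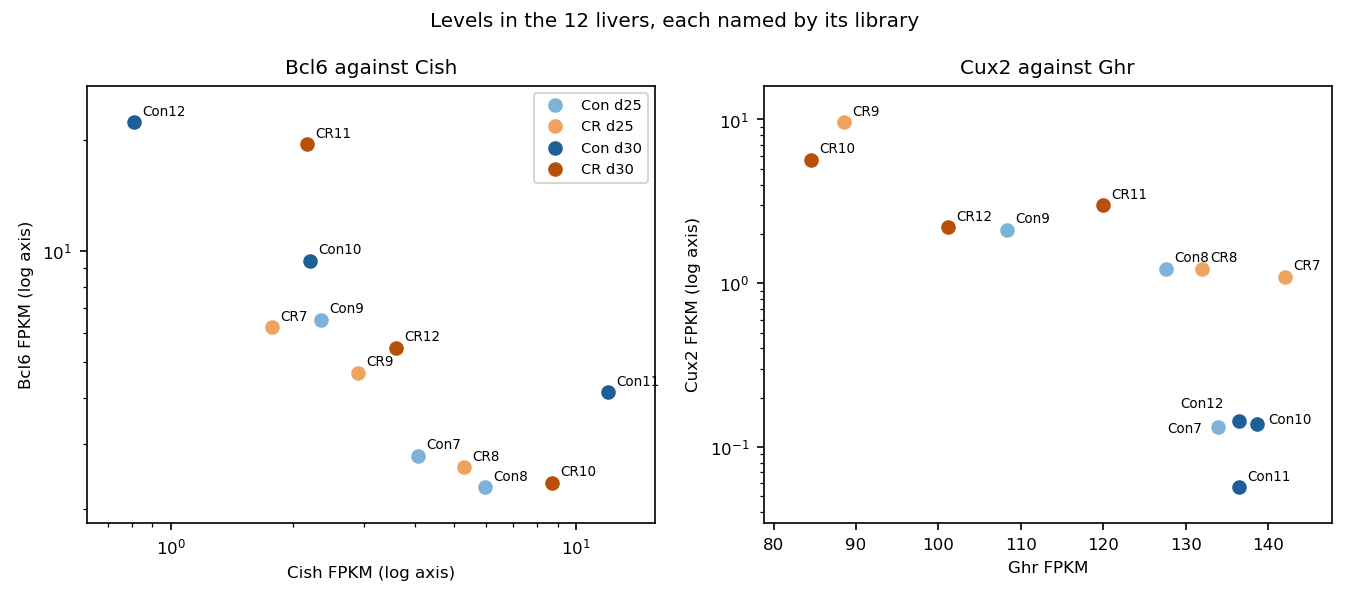
Left, Bcl6 against Cish (both FPKM on log axes), right, Cux2 (FPKM, log axis) against Ghr (FPKM, linear axis that does not start at 0), with 1 point per liver, coloured by group and named by library. Con12, with the lowest Cish (0.811 FPKM), has the highest Bcl6 (22.3 FPKM), Con11, with the highest Cish (12.0 FPKM), has 4.14 FPKM of Bcl6, and the lowest Bcl6, 2.29 FPKM, is in Con8 at 5.95 FPKM of Cish, and Cux2 is highest where Ghr is lowest, in CR9 and CR10.

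The promoters of the 10 genes, among them those of Cish, Socs3 and Bcl6 that varied together or in opposite directions, were searched for the palindrome TTCNNNGAA, the core of sites that STAT proteins bind. RefSeq promoters (GRCm38.p6, 250 bases before to 50 after the start site) were found for 9 of the 10 genes, 14 promoters in all, and not for Socs2. The palindrome, which reads the same on both strands, was in 4 of the 14, those of Cish, Socs3 and both start sites of Bcl6, and in 8.30% of all 32851 promoters. Ghr, Jak2, Stat5a, Stat5b, Cux2 and Onecut1 had no match in these windows. The 3 promoters that hold it in Cish, Socs3 and the downstream start of Bcl6 are printed 5′ to 3′ on the strand of the gene, with the matches in capitals.
Cish promoter (chr9:107296409-107296708, plus strand): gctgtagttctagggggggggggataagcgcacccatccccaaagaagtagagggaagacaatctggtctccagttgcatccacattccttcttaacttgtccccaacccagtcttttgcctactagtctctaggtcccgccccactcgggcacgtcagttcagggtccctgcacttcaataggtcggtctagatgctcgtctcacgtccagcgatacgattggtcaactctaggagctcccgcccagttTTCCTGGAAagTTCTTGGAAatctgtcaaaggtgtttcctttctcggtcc
Socs3 promoter (chr11:117969317-117969616, minus strand): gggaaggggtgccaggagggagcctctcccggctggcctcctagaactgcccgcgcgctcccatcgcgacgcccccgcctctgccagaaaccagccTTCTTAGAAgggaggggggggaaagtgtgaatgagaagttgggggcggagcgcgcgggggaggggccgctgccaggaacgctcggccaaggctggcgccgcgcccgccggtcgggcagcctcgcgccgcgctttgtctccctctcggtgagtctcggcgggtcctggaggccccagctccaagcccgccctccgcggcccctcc
Bcl6 downstream promoter (chr16:23981234-23981533, minus strand): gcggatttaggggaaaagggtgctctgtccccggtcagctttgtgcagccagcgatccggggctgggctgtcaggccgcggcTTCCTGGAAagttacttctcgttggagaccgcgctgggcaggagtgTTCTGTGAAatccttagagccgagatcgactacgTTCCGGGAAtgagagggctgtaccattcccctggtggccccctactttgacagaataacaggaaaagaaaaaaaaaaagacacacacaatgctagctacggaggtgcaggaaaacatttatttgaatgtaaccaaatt
The Cish window holds 2 matches, TTCCTGGAA and TTCTTGGAA, side by side just after the start site, and the downstream Bcl6 window holds 3, TTCCTGGAA, TTCTGTGAA and TTCCGGGAA, that begin 168, 122 and 88 bases before it. Socs3 holds TTCTTAGAA, beginning 154 bases before the start, and the upstream Bcl6 start holds TTCTCAGAA, beginning 118 bases before it. The narrower form TTCCTNGAA, which BCL6 can bind and which is a special case of the palindrome, was searched on both strands and occurs in the Cish and the downstream Bcl6 window and in 1.59% of all promoters. The ONECUT core ATCAAT, also searched on both strands, was in 0 of the 14 and in 7.54% of all promoters. A match of letters is a description of the sequence, not a binding site.

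Other genes of the pathway were read from a list of 39 further receptors, JAKs, STATs, SOCS proteins and phosphatases, of which 32 were tested. At d25 2 of the 32 were higher and 1 lower in CR mice (14.9% of all genes were called), at d30 2 were higher and 8 lower (24.7% of all genes), and over both days 3 were higher and 11 lower, 43.8% against the 40.6% of all genes. Among those with the smallest p over both days were Il6ra, the interleukin 6 receptor (log2 fold change 0.96, adjusted p = 4.9e-05), Prlr, the prolactin receptor that also signals through JAK2 and STAT5 (0.80, adjusted p = 0.00419), and Stat6, the STAT of interleukin 4 (-0.46, adjusted p = 0.00297). Prlr stood at a mean of 46.7 FPKM in CR against 27.2 FPKM in Con mice, and Ghr, the related receptor, which did not pass over both days, at 111.3 against 130.2 FPKM.

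Among the growth hormone targets, Igf1 was at 87.7 FPKM in CR and 76.3 FPKM in Con mice over both days (log2 fold change 0.21, adjusted p = 0.204, limma), and Igfals, the subunit that keeps IGF1 in serum, fell at d30, by a log2 fold change of -0.48 (adjusted p = 0.0675, limma), and did not pass over both days (-0.19, adjusted p = 0.315). The d30 call of Igfals was lost in 7 of 24 alternative settings, among them without Con10, Con11, CR10 or CR12, with adjusted p of 0.174 to 0.195. Of the 8 genes of the IGF system and other growth hormone-regulated genes, 4 passed over both days, against 40.6% of all genes. The 4 were 2 higher and 2 lower, against 14.5% of all genes called higher and 26.1% lower. Igfbp1, an insulin-repressed binding protein, rose by 2.03 (adjusted p = 0.00133, limma) and Igfbp4 by 0.23 (adjusted p = 0.0398, limma). Egfr, the epidermal growth factor receptor, fell (log2 fold change -0.70, adjusted p = 0.0393, limma), as did Serpina3k, a serine protease inhibitor (-0.59, adjusted p = 0.0131, limma).

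Genes listed as sex-biased in liver changed far more than the pathway genes. Whether each of them depends on growth hormone and STAT5 was not tested. Of 20 tested male-biased genes, 12 were lower in CR mice at d25 and 20 at d30, with a median log2 fold change of -1.48 and -3.16, and 0 were higher at either day. Examples are the major urinary proteins Mup20 (-4.40), Mup21 (-4.32) and Mup16 (-3.90) and the fatty acid hydroxylase Cyp4a12b (-3.47), all at d30 with adjusted p of 0.000506 or lower (limma). Ugt2b38, among the 20 tested, reached 1 FPKM in no CR liver. It entered the test through Con livers and had to be lower in CR mice. Of 23 tested female-biased genes, 12 were higher at d25 and 20 at d30, with medians of 0.83 and 1.57, and 0 were lower. The d25 count was 7 without Con7, Con8 or CR9. Of the 31 listed female-biased genes 8 lay below the filter, and 7 of the 23 tested, Cyp2b9 among them, reached 1 FPKM in no Con liver, so they entered the test through CR livers and had to be higher there. Among the 20 called higher at d30 were the flavin monooxygenase Fmo2 (2.34), the cytochrome P450 Cyp2b9 (7.01) and the nuclear factor Tox (1.06), with adjusted p of 0.000685 or lower (limma). The share of all genes called lower was 9.34% at d25 and 16.4% at d30, and the share called higher was 5.60% and 8.33%. The Mup and Cyp4a12 genes have near-identical copies, so the split of reads between single members is uncertain. These lists were assembled with results of these data known, so their counts are a description.

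Set beside these lists liver by liver, the pathway genes followed them to differing degrees. The mean log2(FPKM + 1) of the 20 male-biased genes had r = 0.79 with Ghr and -0.86 with Cux2 over the 12 livers, and that of the 23 female-biased genes had r = -0.70 with Ghr and 0.80 with Cux2. Within groups, over deviations from the group means, r with the male-biased genes was 0.81 for Ghr, -0.75 for Cux2, 0.65 for Onecut1 and -0.85 for Stat5b, and with the female-biased genes -0.74, 0.67, -0.69 and 0.85 in the same order. Over all 12 livers, diets and days included, Stat5b had r of only 0.07 and -0.18 with the 2 lists, and Onecut1 had 0.49 and -0.44. Stat5a had r of 0.62 and -0.68 over all 12 livers but -0.12 and 0.03 within groups. Jak2 likewise had 0.52 and -0.53 over all 12 livers but 0.06 and -0.03 within groups. Within groups, Bcl6, Cish, Socs2 and Socs3 lay between -0.21 and 0.30 with the male-biased genes and between -0.50 and 0.13 with the female-biased genes. Over all 12 livers they lay between 0.03 and 0.51 and between -0.59 and -0.02, with Socs3 farthest from 0 on both lists. The points are the same 12 libraries throughout, and Ghr, Cux2 and Stat5b also varied with each other. CR9 and CR10, the lowest in Ghr and the highest in Cux2, were also the livers lowest in the male-biased genes within their groups, at means of 3.96 and 3.14, and Con11 was the highest of all, at 7.50.

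**Figure D5:**
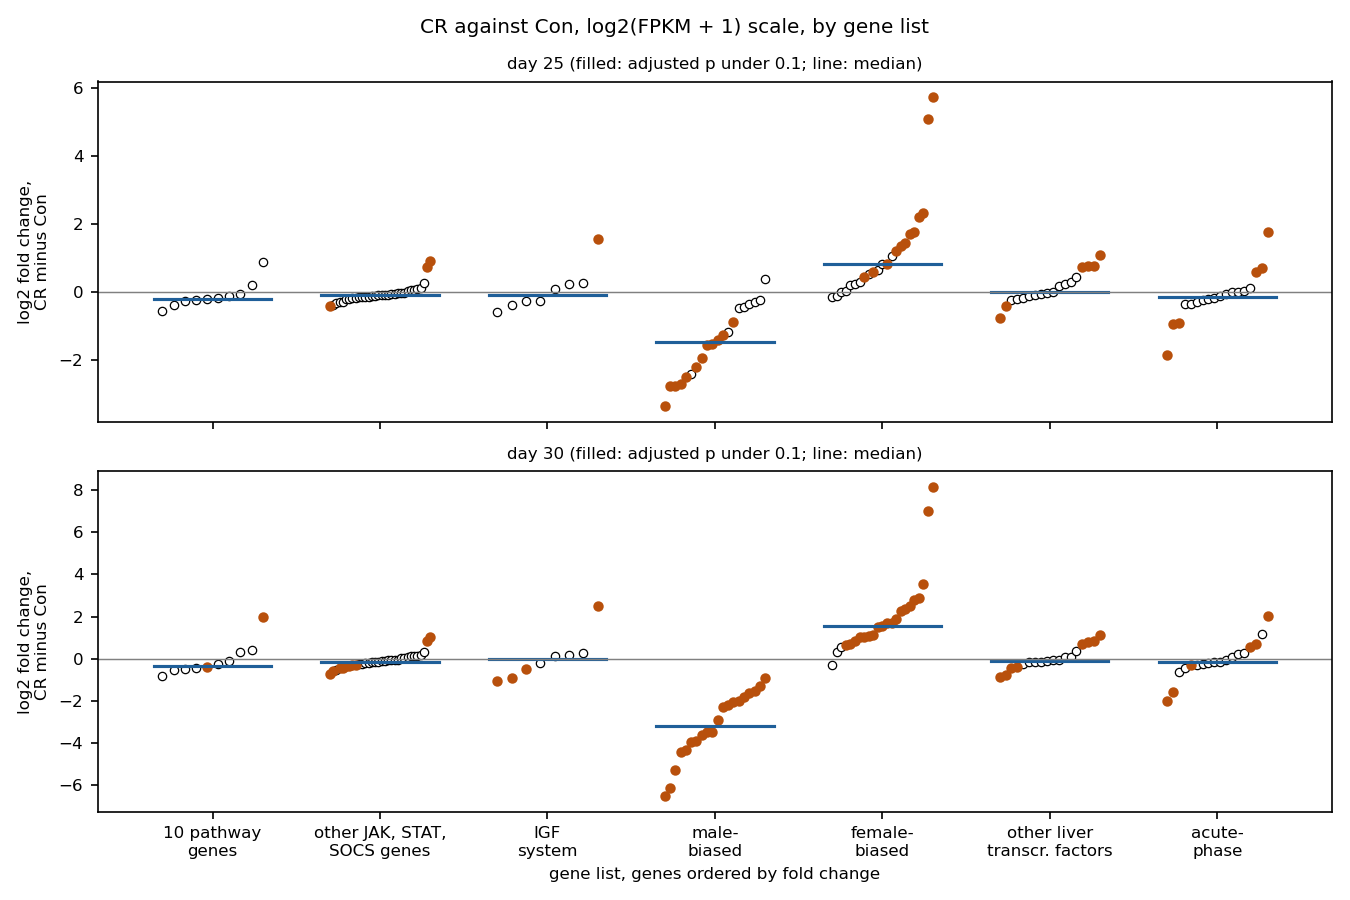
Log2 fold change of CR against Con (vertical axis, log2(FPKM + 1) scale) at d25 (top) and d30 (bottom) for the tested genes of 7 lists, ordered within each list, with filled points for an adjusted p under 0.1 and a line at the median. The 10 pathway genes apart from Cux2 lie between -0.79 and 0.44 at d30, while the male-biased genes have a median of -3.16 and the female-biased genes of 1.57 at d30.

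Transcription factors and STAT3-responsive genes around the pathway gave 2 further points of comparison. Of all genes tested, 14.5% were called higher and 26.1% lower over both days. Of 18 other liver transcription factors, 4 rose and 3 fell over both days, among them Esr1, the estrogen receptor (1.10, adjusted p = 3.6e-05), Nr1i2, the pregnane X receptor (0.79, adjusted p = 7.0e-05), and Foxo1, which insulin signalling holds back (0.79, adjusted p = 7.2e-05). Of 18 acute-phase genes that STAT3 can switch on, 3 rose and 7 fell over both days; Saa1 and Saa2, serum amyloid proteins, fell (-1.93, adjusted p = 0.000315, and -1.26, adjusted p = 0.00138), as Socs3 did, while Orm2, an acute-phase glycoprotein, and Cebpd rose by 1.89 (adjusted p = 2.6e-05) and 0.57 (adjusted p = 0.00122).

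The genes whose levels over the 12 livers were most like those of each pathway gene were named by Pearson's r of log2(FPKM + 1). For Ghr these were Irf5 (r = 0.93) and Slco1a1 (0.93), an organic anion transporter of the male-biased list, and for Cux2 Cnst (0.93) and Gnptg (0.93). They were Vps54 (0.95) and Rb1 (0.95) for Jak2, Gk (0.92) and Taok3 (0.91) for Stat5a, and Unkl (0.88) and Ttf1 (0.86) for Stat5b. For the feedback genes they were Mir291b (0.84) and Etfbkmt (0.82) for Socs2, Trip10 (0.87) and Tmem80 (0.85) for Cish, and Asap3 (0.88) and Phlda1 (0.85) for Socs3. They were Gbp2 (0.85) and Tmem9b (0.83) for Bcl6 and Zyg11a (0.91) and Slc25a30 (0.87) for Onecut1. These are the top 2 of 10592 correlations for each gene over the same 12 libraries, and none of the 10 pathway genes was among another's nearest pair.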

How the data were processed

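Liver RNA of 12 mice was sequenced on 1 lane as 100-base read pairs. The authors deposited 1 table of FPKM values: reads were mapped to mm10 with BWA after base calling with CASAVA 1.8.2, and HOMER counted reads on the exons of 1 transcript per gene, with no scaling between libraries. Whole reads were recovered from the FPKM and the exon length, with each depth chosen so that the low values came out whole. Of these low values 100% were whole within 0.1 read, and of all values checked 97.2% to 99.99%. The depths were 15748927 to 23345146 reads. The submitters' notes also name DESeq2, which was not used here because the values are FPKM.

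Values were taken as log2(FPKM + 1) for the 10593 genes that reached 1 FPKM in 3 or more libraries. Group means were fitted with limma 3.58.1 (R 4.3.3, moderated with a trend) over all 12 libraries, with day as a covariate for the contrast over both days, and p-values were adjusted by Benjamini-Hochberg over all genes tested. A gene passed at an adjusted p under 0.1, and genes that also changed by 1 or more on the log2 scale were counted beside. The p-values set each difference against the spread between these mice, moderated over all genes tested. The limma fit was tested on simulated data with known changes at d30. Alternatives were other pseudocounts, filters, scalings and thresholds, voom on the recovered reads, fits of only the groups compared, a replicate block and leaving out each library. Python 3.11.15 with pandas 2.3.3, numpy 2.4.6, scipy 1.17.1 and matplotlib 3.10.9 was used.

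The pathway genes and gene lists were chosen with earlier results of these data known. Named besides were Igf1, Igfals, up to 4 genes of each other list with the smallest p over both days, and the 2 genes most correlated with each pathway gene. Some genes that this rule names are not reported here. The main fits used no pairing, and the labels do not say that same-numbered mice belong together. A replicate block was run only as an alternative, at d25 and between the days in CR mice. Deviations of same-numbered libraries correlated at 0.37, 0.31 and 0.11 at d25, all above those of different-numbered libraries, at -0.29 to 0.01. This does not establish a pairing, and a replicate structure shared by the d25 groups was not tested further. Between CR mice of d25 and d30 same-numbered libraries correlated at -0.38, 0.30 and 0.08, and different-numbered ones at -0.39 to 0.34. The Con d30 columns could be tied to their group only, not to a replicate number.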

Additional observations from a re-analysis of the deposited data

Results flagged for a closer look

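Within each diet, the highest and lowest of the 6 livers were set against the others by Dixon's ratio, the gap to the nearest liver over the whole range, with a critical value of 0.625. Of 20 groups tested, 4 livers passed it. The critical value passes about 1 in 20 groups of independent, normally distributed values. Here FPKM was not transformed, livers of both days were pooled and several genes varied together. That rate is therefore no measure for the 4. Ghr was 108.3 FPKM in Con9, with the next Con liver at 127.6 FPKM. Bcl6 was 22.3 FPKM in Con12, with the next Con liver at 9.41 FPKM, and 19.5 FPKM in CR11, with the next CR liver at 6.23 FPKM. Onecut1 was 28.1 FPKM in Con11, with the next Con liver at 10.9 FPKM. The causes were not tested.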

How the results depend on the processing

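The d30 count of 2 pathway genes was 1 with no filter, with the stricter filter of 5 FPKM, under median-ratio scaling, at an adjusted p under 0.05 and with the minimum fold, and 0 to 3 with 1 library left out (0 without CR10). The count of 4 over both days was 2 with no filter, under quantile normalization and at 0.05, 0 with the stricter filter, 1 with the minimum fold, and 2 to 5 with 1 library left out (2 without Con7, CR8, Con11 or CR11). The stricter filter tests fewer genes, leaving out Jak2, Stat5a, Socs3 and Cux2. The other 4 contrasts gave 0 in every setting run. The replicate block at d25, fitted to the d25 libraries alone, gave 0 pathway genes, as without it. It called 2077 genes in all. Without the block, the fit of only the d25 groups called 1223 and the main fit 1582. At d30 and over both days no block was possible because the Con d30 columns carry no replicate number. Over all genes, d25 counts were 969 at an adjusted p under 0.05, 1032 with the stricter filter, 157 with the minimum fold and 1000, 1004 and 893 without Con7, CR7 and CR9. At d30 they were 1740 at 0.05, 234 with the minimum fold and 1497 without CR10, against 2619, and over both days 2702 with the stricter filter and 176 with the minimum fold, against 4304. From d25 to d30, the 34 genes in CR mice ran from 2 (without CR7) to 54 (median-ratio scaling), with 2 to 16 without Con8, CR7, CR8, CR9, CR10 or CR11, and the 0 in Con mice became 22 without Con7, 7 without Con10, 3 without CR8 and 1 with either other pseudocount and under TPM. The female-biased genes called higher at d30, 20 of 23, were 11 with the stricter filter, which tests fewer genes, and the male-biased genes called lower at d25, 12 of 20, were 8 to 14 with 1 library left out.

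The log2 fold change of Socs2 over both days turned from -0.05 to 0.0088 with a pseudocount of 0.1, to 0.00049 under median-ratio scaling and to 0.021 under quantile normalization, and ran from -0.37 to 0.18 with 1 library left out. Other directions that turned with 1 library left out were those of Ghr at d25 (-0.18 to 0.16), Stat5b at d25 (-0.23 to 0.0091), Socs2 at d30 (-0.16 to 1.08), Cish at d25 (-0.58 to 0.013), d30 (-0.31 to 1.11) and both days (-0.28 to 0.35), Bcl6 at d25 (-0.013 to 0.58), d30 (-1.21 to 0.10) and both days (-0.41 to 0.17), Onecut1 at d25 (-0.63 to 0.13), d30 (-1.01 to 0.33) and both days (-0.58 to 0.015), and of the cholangiocyte marker Spp1 over both days (-0.18 to 0.11). None of these had passed the test, and the causes were not tested. The median of all genes at d30 was -0.07 as deposited, -0.11 under TPM and -0.00 under median-ratio scaling. Depth limits Cux2 most, with 6 to 16 reads in the Con d30 livers.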
